A study of Arabidopsis thaliana with 2 samples.

Results

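Pericentromeric CG regions are the stretches beside the centromeres of Arabidopsis thaliana that the authors' deposited tables list as differing in CG methylation between a plant line and Col wild type. A region was a member when its midpoint lay within 3 Mb of 15, 3.6, 14, 4 or 12 Mb on chromosomes 1 to 5, the centromere points used here, with the knob of chromosome 4 (1.6 to 2.3 Mb) left out. The comparison of ddb2-3 held 6743 such regions of 30324 CG regions on the nuclear chromosomes (22.2%). The comparison of the line called cen held 7347 of 32840 (22.4%). Together they were 14090 of the 83919 nuclear regions in the 6 deposited tables, which cover CG, CHG and CHH sites (H is any base but G).

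The ddb2-3 line carries the insertion DsLoxHs195_05H in DDB2, whose product recognises ultraviolet damage for global genome repair. Col is the wild type. Both were whole seedlings, grown for 10 days in vitro, with 1 bisulfite library each. The line called cen has no entry in the labels used here, so its genotype, stage and growth are not stated. Both comparisons were made against Col, and their values are therefore not independent of each other.

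In plants, CG methylation is copied after replication by the maintenance methyltransferase MET1 together with VIM proteins that bind the freshly copied, hemimethylated DNA. It marks transposons and repeats in heterochromatin, where the remodeller DDM1 gives the methyltransferases access and CHG and CHH methylation accompany it. It also marks the bodies of many expressed genes, mostly without the other contexts. The sequence beside Arabidopsis centromeres is rich in transposons and repeats and poor in genes, and it passes gradually into the gene-rich arms.

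Each deposited row gives a stretch made of windows of 100 bp and how far the methylation level, the share of methylated reads, differed there, on a scale where 1 is the whole range. No level per library, read number or p-value is given, so the depth behind a region is unknown, no test across plants was possible, and which windows had enough reads to be listed is not known. Intervals in parentheses are 95% Wilson intervals, or 95% normal intervals for a difference between shares. They cover counting error only. The tables do not state which line was subtracted. A positive value was read as Col above the other line, because 82 of the 84 pericentromeric CG regions with the same value in both tables were positive. The same value can arise where both lines are unmethylated or where both are fully methylated. The reading assumes the former, and no level is given to tell them apart. "Higher" and "lower" mean the line relative to Col under that reading and would be exchanged if it were wrong. DDB2 itself lies on an arm, where the authors' deposited table of ddb2-3 lists chromosome 5 from 23731001 to 23732000 (TAIR10) as lower by 0.355, against 2 single windows of the cen table in that gene, lower by 0.197 and 0.263.

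Beside the centromeres, regions of higher CG methylation took a larger share than on the arms in both comparisons. In ddb2-3, 3535 pericentromeric regions were higher than Col and 3208 were lower, a share higher of 52.4% (51.2 to 53.6). On the arms of ddb2-3 the share was 46.1% (45.5 to 46.8), and over all nuclear CG regions it was 47.6%. In cen, 4924 pericentromeric regions were higher than Col and 2423 were lower, a share of 67.0% (65.9 to 68.1). On the arms of cen the share was 54.2%, and over all nuclear CG regions it was 57.1%. Higher regions thus outnumbered lower ones beside the centromeres in both lines, by a small margin in ddb2-3 and by a wide one in cen. The margin in ddb2-3 rested on small differences. Among regions that differed by at least 0.2 the share higher in ddb2-3 was 49.5%, and among those of at least 0.3 it was 46.9%, while cen remained above an even split at 59.0% and 55.1%.

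The regions also stood apart from those of the arms in what they lay in. Protein-coding genes held 39.5% (38.3 to 40.7) of the pericentromeric regions of ddb2-3 and 39.3% (38.2 to 40.5) of those of cen, against 90.0% of the arm regions of either line. Genes make up 22.1% of the 29.3 Mb examined, so even here the regions lay in genes more often than that share of the sequence. Pseudogenes of the RefSeq table, among which transposon genes were not told apart here, make up 27.5% of the sequence and held 25.6% of the ddb2-3 regions and 25.6% of the cen regions. The remaining sequence, which lies in no annotated gene and not within 1 kb of a protein-coding one, makes up 36.5% and held 25.1% of the ddb2-3 regions and 25.4% of the cen regions.

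Over the pericentromeres as a whole, the share of higher regions was larger outside the protein-coding genes than in them. In the other sequence, which is everything but protein-coding genes, 56.0% (54.5 to 57.5) of the ddb2-3 regions were higher than Col, against 46.9% (45.0 to 48.8) in the genes. In cen, 74.0% (72.7 to 75.3) were higher in other sequence, against 56.3% (54.5 to 58.1) in the genes. Within the other sequence, pseudogenes had the largest shares, 61.0% higher in ddb2-3 and 78.8% higher in cen. The remaining sequence followed at 55.7% in ddb2-3 and 72.0% in cen. The flanks within 1 kb of protein-coding genes had 44.3% in ddb2-3 and 66.8% in cen, so in ddb2-3 they stood with the genes rather than with the pseudogenes. In ddb2-3, pericentromeric genes were close to genes on the arms, where 46.5% (45.8 to 47.1) of the regions were higher. In cen they stood above the arm genes, which had 53.2% (52.5 to 53.8) higher. Other sequence on the arms had 43.1% higher in ddb2-3 and 63.5% in cen, below the pericentromeric share in both. In ddb2-3 that arm share was also below the one of the arm genes. At 2 to 3 Mb from the centromere point, ddb2-3 had 46.0% higher in other sequence and 47.0% in genes, so the order was not seen there.

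The share higher was larger near the centromere point in other sequence of both comparisons, but showed no steady order in genes of ddb2-3. In other sequence, the share of ddb2-3 regions higher than Col was 65.4%, 60.4%, 58.1%, 52.0%, 46.0% and 46.1% in successive steps of 0.5 Mb from the centromere point outward. Higher regions of ddb2-3 thus outnumbered lower ones up to 2 Mb, and lower ones outnumbered higher ones beyond. In cen the same steps gave 80.9%, 77.8%, 74.1%, 69.5%, 68.0% and 67.9%. The cen regions were thus mostly higher at every distance, with the same order from the inside outward. In protein-coding genes of ddb2-3 the shares were 55.6%, 43.8%, 44.8%, 48.0%, 45.3% and 48.2%, with only 63 and 128 regions in the innermost steps. In protein-coding genes of cen they were 69.9%, 58.6%, 56.5%, 58.9%, 53.2% and 55.7%, and here the innermost step of 93 regions stood above the rest.

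**Figure D1:**
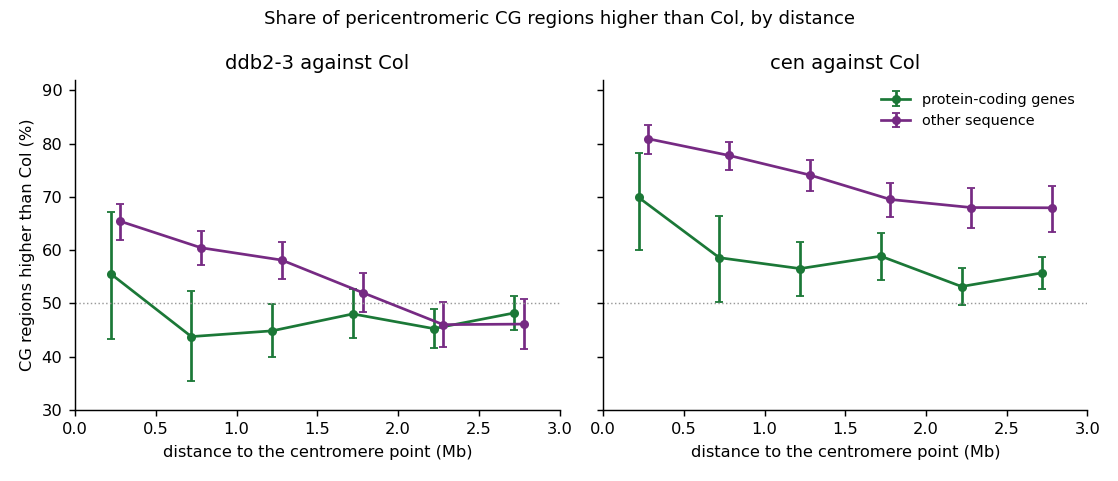
Share of pericentromeric CG regions higher than Col (%) against the distance of their midpoint to the centromere point (Mb, steps of 0.5 Mb), for ddb2-3 (left panel) and cen (right panel), with points at the middle of each step, drawn slightly apart. Bars are 95% Wilson intervals and the dotted line marks 50%. In other sequence the share is 65.4% in the innermost step and 46.1% in the outermost in ddb2-3, and 80.9% and 67.9% in cen, while genes show no such steady order in ddb2-3.

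Set as the innermost 1 Mb against 2 to 3 Mb, other sequence had 62.7% higher in the inner part and 46.0% in the outer part of ddb2-3, a difference of 16.7 percentage points (12.7 to 20.6). In cen it had 79.3% in the inner part and 68.0% in the outer part, a difference of 11.3 points (7.85 to 14.7). The inner share exceeded the outer one on 5 of 5 chromosomes and on 10 of 10 chromosome sides in each comparison. In ddb2-3 the difference ran between 11.9 points on chromosome 2 and 25.1 points on chromosome 1, and in cen between 8.62 points on chromosome 5 and 18.3 points on chromosome 4. In genes of ddb2-3 the inner part had 47.6% and the outer part 47.0%. The inner share was larger there on 2 of 5 chromosomes and 4 of 10 sides. In genes of cen the inner part had 63.1% and the outer part 54.6%. The inner share was larger there on 3 of 5 chromosomes and 8 of 10 sides. Pseudogenes and the remaining sequence kept the order apart from each other: in ddb2-3, pseudogenes had 65.8% higher in the innermost step and 51.7% in the outermost, and the remaining sequence had 65.6% and 41.6%. In cen these values were 81.4% and 74.5% in pseudogenes, and 80.1% and 63.2% in the remaining sequence.

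**Figure D2:**
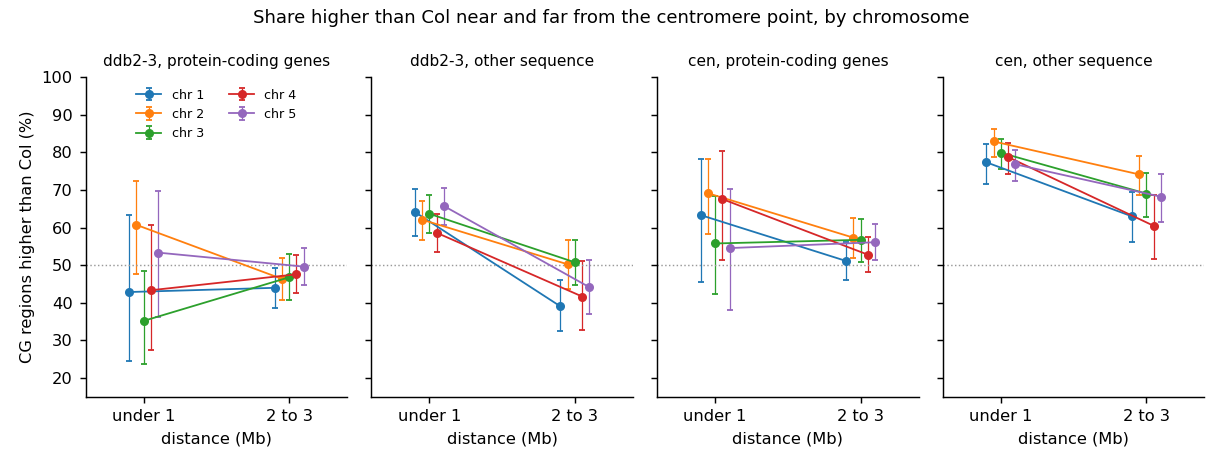
Share of CG regions higher than Col (%) in the innermost 1 Mb and at 2 to 3 Mb from the centromere point, 1 line for each of the 5 chromosomes, in protein-coding genes and other sequence of ddb2-3 and cen, with 95% Wilson intervals and a dotted line at 50%. In other sequence all 5 lines run downward in both comparisons, from 62.7% to 46.0% over all chromosomes in ddb2-3 and from 79.3% to 68.0% in cen, while those in genes cross.

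Behind these shares, higher regions thinned out and lower regions thickened with distance in ddb2-3. Per Mb of other sequence, ddb2-3 had 104, 114, 109, 102, 83.2 and 72.8 higher regions in the successive steps. The lower regions of ddb2-3 numbered 54.8, 74.4, 78.4, 94.4, 97.7 and 85.1 per Mb. In cen there were 145, 159, 158, 143, 132 and 112 higher regions per Mb, and 34.3, 45.3, 55.1, 62.9, 62.3 and 53.0 lower ones. Over both directions and all sizes of difference, other sequence held regions at a fairly even density. It was between 158 and 197 per Mb in ddb2-3 and between 165 and 213 per Mb in cen. Genes held more, 204 per Mb in the innermost step of ddb2-3 and 413 to 476 per Mb from 1 Mb outward, and 300 and 448 to 466 per Mb in cen. Genes make up 6.19% of the sequence in the innermost step and 46.4% in the outermost. The density of all regions was lower near the centromere, at 161 and 278 per Mb in the innermost and outermost steps of ddb2-3. In cen it was 187 and 296 per Mb. The part of gene content in this was not tested. At differences of 0.3 or more, other sequence itself held fewer regions within 1 Mb than at 2 to 3 Mb. There were 108 and 248 in ddb2-3, and 94 and 239 in cen. With all sizes counted, the share of regions in genes rose from 7.82% innermost to 69.6% outermost in ddb2-3 and from 9.94% to 70.1% in cen. Just beyond the limit of 3 Mb, at 3 to 3.5 Mb, 76.0% of the regions of either line lay in genes, and 47.4% of the ddb2-3 regions and 58.4% of the cen regions were higher, close to the 47.6% and 59.4% of the step just inside it.

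**Figure D3:**
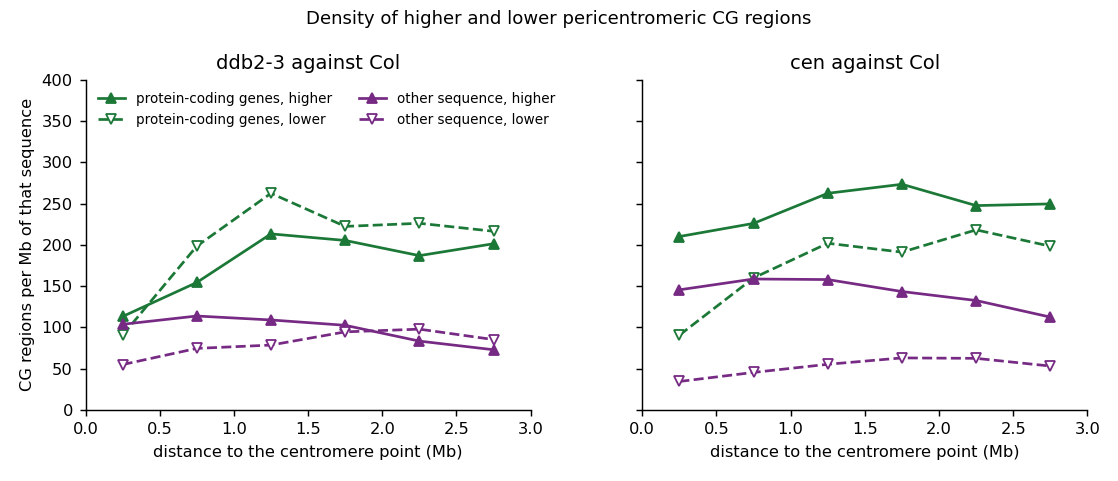
CG regions per Mb of protein-coding genes or of other sequence, against the distance to the centromere point (Mb, steps of 0.5 Mb), for regions higher than Col (filled triangles, solid lines) and lower (open triangles, dashed lines) in ddb2-3 (left) and cen (right). In other sequence of ddb2-3 the lines cross near 2 Mb, with 104 higher and 54.8 lower regions per Mb in the innermost step and 72.8 and 85.1 in the outermost, whereas in cen the higher regions stay above the lower ones throughout.

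Higher regions outnumbered lower ones on every chromosome of cen, but not on every chromosome of ddb2-3. Chromosome 1 of ddb2-3 had 579 higher and 598 lower regions, and its chromosome 4 was near even, with 693 and 688. Over all sequence, the share higher in ddb2-3 ran between 49.2% on chromosome 1 and 54.3% on chromosome 5, and in cen between 62.9% on chromosome 1 and 72.4% on chromosome 2. In bins of 0.25 Mb, higher regions outnumbered lower ones in 22, 24, 24, 19 and 23 of 24 bins on chromosomes 1 to 5 of cen, and in 12, 16, 15, 10 and 17 of 24 bins of ddb2-3. The count of chromosome 4 includes 2 bins wholly within the knob, which could not count because its regions were left out. The sparsest bin outside the knob was the one just before the centromere point of chromosome 1, with 3 regions in ddb2-3 and 6 in cen. On chromosome 2 from 3.2 to 3.6 Mb, a stretch known to hold an insertion of mitochondrial DNA, ddb2-3 had 49 higher and 16 lower regions and cen had 80 and 9. The part of mitochondrial reads in these counts was not tested. Without it the shares higher were 52.2% in ddb2-3 and 66.7% in cen.

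**Figure D4:**
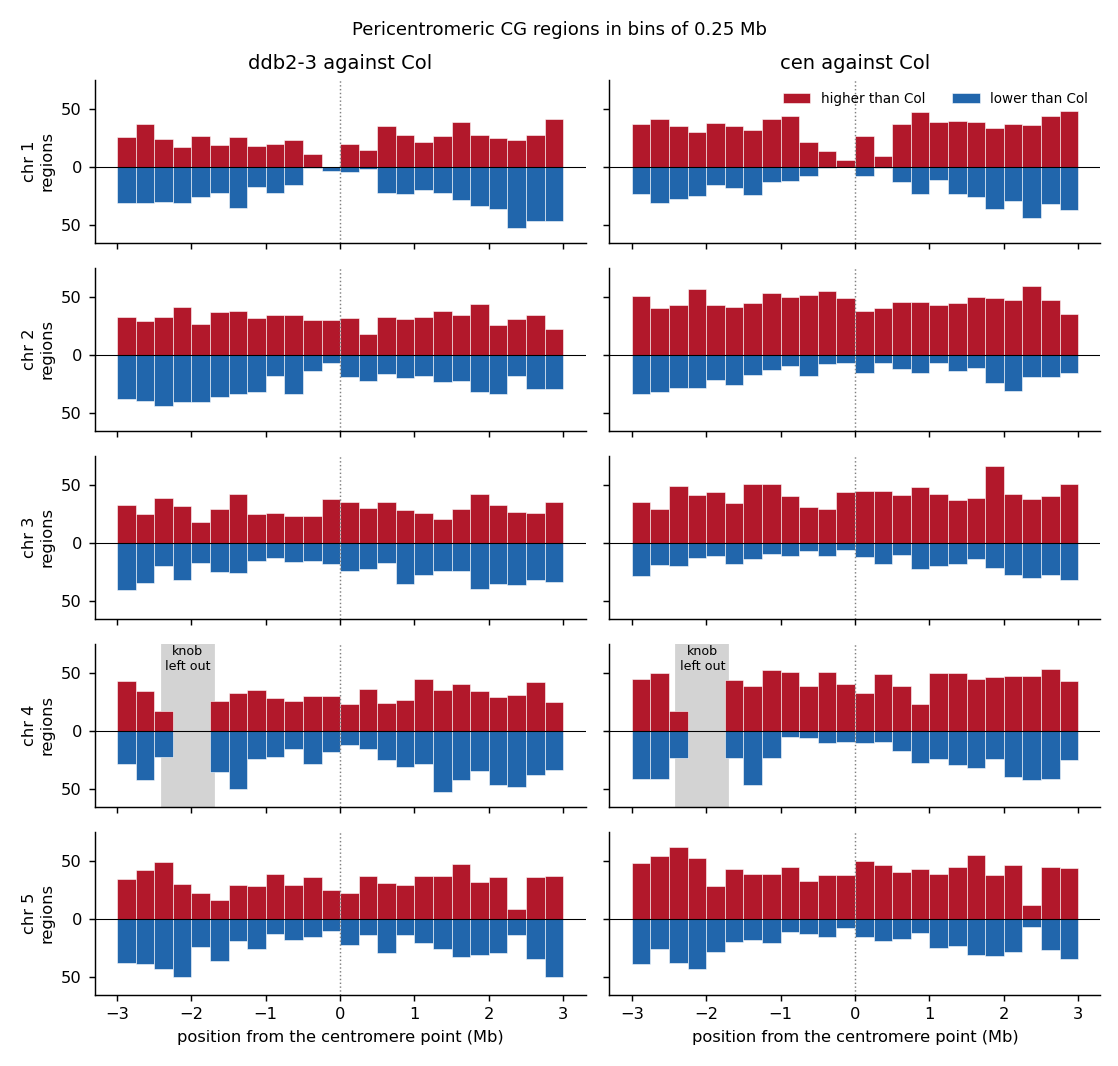
Number of CG regions higher than Col (red, upward) and lower than Col (blue, downward) in bins of 0.25 Mb against position from the centromere point (Mb) on the 5 chromosomes, for ddb2-3 (left column) and cen (right column). The grey span on chromosome 4 is the knob, which was left out. Blue bars shorten toward the centromere point in most panels, and in cen higher regions outnumber lower ones in every bin of chromosomes 2 and 3.

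Most of the differences were small, and those in other sequence were the smaller ones. The median absolute difference was 0.236 in genes and 0.171 in other sequence of ddb2-3, and 0.233 and 0.166 in cen. In other sequence it was 0.156 in the innermost 1 Mb and 0.202 at 2 to 3 Mb in ddb2-3, and 0.154 and 0.201 in cen. In other sequence the share higher was largest among the small differences. Of the ddb2-3 regions there, 60.5% (58.0 to 62.9) were higher at differences of 0.1 to 0.15, 55.6% at 0.15 to 0.2, 53.8% at 0.2 to 0.3 and 47.7% (42.1 to 53.3) at 0.3 to 0.4. In cen these shares were 78.6% (76.6 to 80.5), 77.3%, 69.5% and 57.8% (51.8 to 63.6). The order did not go on beyond that size. At 0.4 to 0.6 the share was 49.6% (43.3 to 55.9) in ddb2-3 and 63.0% (56.8 to 68.8) in cen, and at 0.6 or more, with 45 and 48 regions, it was 51.1% and 52.1%. The order by distance was not confined to the small differences. At differences under 0.15, other sequence had 65.8% higher in the innermost 1 Mb and 48.8% at 2 to 3 Mb in ddb2-3, and 81.3% and 74.4% in cen. At differences of 0.2 or more it had 60.3% in the inner and 44.7% in the outer part of ddb2-3, and 71.3% and 63.6% in cen. It was not seen at 0.3 or more. At differences of 0.3 or more, 44.4% of 108 inner regions and 46.8% of 248 outer regions of ddb2-3 were higher, and 57.4% of 94 and 63.2% of 239 in cen. In genes the share by size ran between 43.0% and 52.9% in ddb2-3 without a steady order, and from 62.5% at the smallest differences to 48.5% at 0.6 or more in cen.

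**Figure D5:**
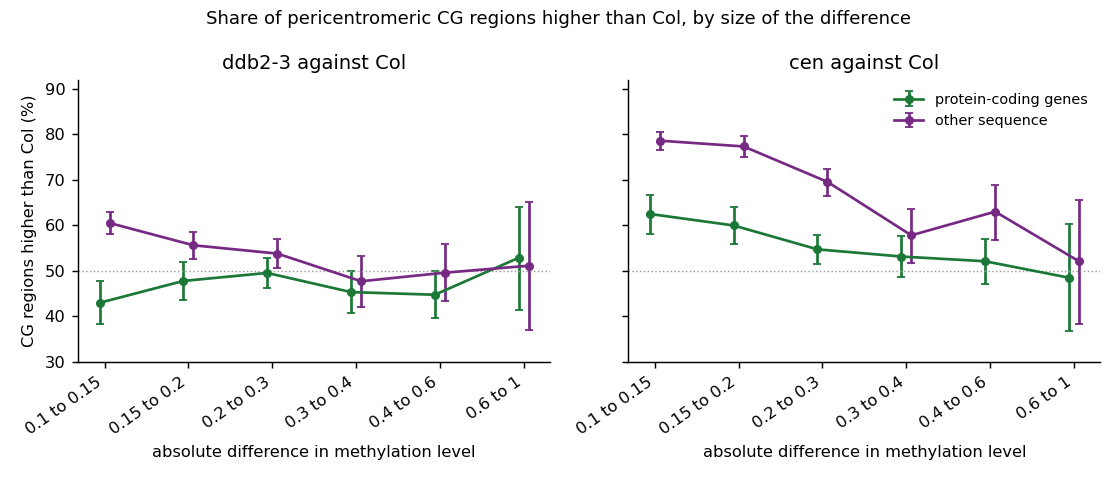
Share of pericentromeric CG regions higher than Col (%) by the absolute difference in methylation level, in protein-coding genes and other sequence of ddb2-3 (left) and cen (right), with 95% Wilson intervals and a dotted line at 50%. In other sequence the share is 60.5% at the smallest differences and 47.7% at 0.3 to 0.4 in ddb2-3, and 78.6% and 57.8% in cen, where other sequence stands at 63.0% and genes at 52.1% at 0.4 to 0.6.

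The regions were short. A single window of 100 bp made up 84.2% of the ddb2-3 regions and 83.2% of the cen regions, and the mean length was 127 bp in ddb2-3 and 130 bp in cen. In all, they covered 857 kb in ddb2-3 and 955 kb in cen, and 61 and 86 of them reached 500 bp. The median gap between neighbouring regions was 2400 bp in ddb2-3 and 2200 bp in cen. Neighbours of the same direction were never closer than 200 bp, whereas 157 neighbouring pairs of opposite direction in ddb2-3 and 183 in cen abutted or overlapped, so windows of 1 direction with smaller gaps were not listed apart from each other. Among neighbours 200 to 500 bp apart, pairs in genes had the same direction at 49.6% (45.6 to 53.6) in ddb2-3 and 51.2% (47.3 to 55.1) in cen, close to the 50.2% and 50.8% that the shares of higher and lower regions give for independent pairs. In other sequence the values were 53.2% (48.0 to 58.2) beside 50.7% in ddb2-3, and 68.8% (64.1 to 73.1) beside 61.5% in cen.

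Among protein-coding genes, those of the pericentromeres carried CG regions about as often as arm genes. Of 3147 such genes, 1347 (42.8%) had at least 1 region in ddb2-3, against 43.1% of the arm genes, and 1426 (45.3%) had at least 1 in cen, against 45.3% on the arms. A higher region was found in 28% and a lower one in 31% of the pericentromeric genes in ddb2-3, and in 34.7% and 27.8% in cen. Genes with a region were longer, with a median length of 2596 bp beside 1136 bp for genes without one in ddb2-3 and 2516 bp beside 1126 bp in cen. Short genes carried a region more often here than on the arms: of genes from 1 to 2 kb long, 34.1% had one in ddb2-3 against 22.9% on the arms, and 38.5% had one in cen against 25.4%. At 4 kb or more, 86.0% had one in ddb2-3 against 86.4% on the arms, and 88.3% had one in cen against 88.4%. Within the innermost 1 Mb, 115 of 386 genes (29.8%) had a region in ddb2-3 and 136 (35.2%) in cen, and these genes were also shorter, with a median of 1188 bp beside 1843 bp at 2 to 3 Mb. Inside genes, 59.1% of the ddb2-3 regions and 59.3% of the cen regions lay in the middle 50% of the gene's length.

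Genes with several regions mostly carried both directions. Of the 690 genes with at least 2 regions in ddb2-3, 511 had higher and lower ones, 69 had higher ones alone and 110 had lower ones alone. Of the 723 in cen, 542 had both, 117 had higher ones alone and 64 had lower ones alone. AT1G48090, 26.5 kb long, led in ddb2-3 with 5 higher and 7 lower regions and had 8 higher and 4 lower ones in cen. AT4G02660, of 14.8 kb, led in cen with 6 higher and 9 lower regions and had 7 and 1 in ddb2-3. GSL05, which encodes a callose synthase of wound and pathogen responses, had 4 higher and 5 lower regions in each comparison. In the authors' deposited tables its largest differences were higher by 0.338 and lower by 0.880 in ddb2-3, and higher by 0.834 and lower by 0.778 in cen. ABCG38, an ABC transporter gene, had 7 higher and 3 lower regions in ddb2-3 and 4 and 2 in cen. The genes of both homomeric acetyl-CoA carboxylases, the enzymes that supply malonyl-CoA for fatty acid synthesis and elongation, were also among those with most regions. ACC2 had 4 higher and 5 lower regions in ddb2-3, and ACC1 had 3 higher and 5 lower ones in cen. CHR5, a chromatin remodeller of the CHD family, had 3 higher and 5 lower regions in ddb2-3, and TPR3, a co-repressor related to TOPLESS, had 5 higher and 4 lower ones in cen.

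The largest single differences came close to the whole range of the scale, and those named in genes lay 939 to 2948 kb from the centromere point. In the authors' deposited table, the region of ddb2-3 with the largest gain lay in ATMIN7, a gene for an exchange factor of vesicle traffic that acts in immunity, on chromosome 3 from 15236001 to 15236100 (TAIR10), higher by 0.927. The authors' deposited table of cen lists the same window as higher by 0.867. Next in ddb2-3 came AT4G02715, higher by 0.849 on chromosome 4 from 1201501 to 1201600, with no region there in cen. The third was FIM5, the gene of an actin-bundling fimbrin, higher by 0.847 on chromosome 5 from 13874701 to 13874800 in the authors' deposited table, and by 0.354 in cen. How often any pericentromeric region has a counterpart in the other comparison is not given here. Presence or absence there is therefore only described for the named regions. The largest losses of ddb2-3 in genes had no region at the same place in the cen table. They lay in GSL05 on chromosome 4 from 1577101 to 1577200, lower by 0.880, in PHS1, a plastid starch phosphorylase gene, on chromosome 3 from 11256001 to 11256100, lower by 0.875, and in AT1G42480 on chromosome 1 from 15938601 to 15938700, lower by 0.849.

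In cen, the largest gain in the authors' deposited table lay in AT5G37350 on chromosome 5 from 14794901 to 14795100, higher by 0.903, and ddb2-3 was higher there by 0.842. BSL1, a phosphatase gene of the brassinosteroid pathway, followed on chromosome 4 from 1360401 to 1360500, higher by 0.895. EIF3A, a translation initiation factor gene, was higher by 0.875 on chromosome 4 from 6948201 to 6948300. Neither had a region at that place in ddb2-3. The largest losses of cen lay in HDA2, a histone deacetylase gene, on chromosome 5 from 9099801 to 9099900, lower by 0.890, in HK2, a cytokinin receptor gene, on chromosome 5 from 13913201 to 13913400, lower by 0.867, and in AT2G04845 on chromosome 2 from 1702501 to 1702600, lower by 0.864. The authors' deposited table of ddb2-3 lists nothing at these 3 places.

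Outside protein-coding genes, several of the largest differences appeared in both tables, which share Col. The pseudogene AT4G08110 on chromosome 4 from 5084901 to 5085000 was higher by 0.761 in ddb2-3 and by 0.746 in cen in the authors' deposited tables. Within 1 kb of AT5G36130, chromosome 5 from 14210601 to 14210800 was lower by 0.893 in ddb2-3 and by 0.832 in cen. The pseudogene AT5G35111 was higher by 0.667 in ddb2-3 and by 0.754 in cen, on chromosome 5 from 13366201 to 13366300. The remaining ones were less alike. Near AT5G37240, chromosome 5 from 14740101 to 14740200 was higher by 0.785 in ddb2-3 and by 0.261 in cen. AT3G30737 was lower by 0.804 in ddb2-3 and by 0.256 in cen, on chromosome 3 from 12363801 to 12363900, and AT3G43955 was lower by 0.406 in ddb2-3 and by 0.817 in cen, on chromosome 3 from 15772601 to 15772700.

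The longest regions went in different directions in the 2 comparisons at some places. In ddb2-3 the longest lay in the pseudogene AT1G33855, 1000 bp on chromosome 1 from 12291101 to 12292100, lower by 0.531 in the authors' deposited table and lower by 0.238 in CHG, with no CG region of cen. AT1G35895 held 900 bp on chromosome 1 from 13353501 to 13354400 that were lower by 0.425 in ddb2-3 and by 0.428 in cen, with CHG lower by 0.196 in ddb2-3 and 0.207 in cen. A further 900 bp on chromosome 4 from 6281601 to 6282500, in no annotated gene and with no protein-coding gene within 1 kb, were lower by 0.285 in ddb2-3, with CHG lower by 0.206, and an overlapping region of cen was lower by 0.206. The longest of cen, 1000 bp in AT4G08250 on chromosome 4 from 5197101 to 5198100, was higher by 0.276 in the authors' deposited table of cen, while an overlapping region of ddb2-3 was lower by 0.362. Near AT3G43970, 900 bp on chromosome 3 from 15776701 to 15777600 were higher by 0.463 in cen, with CHG higher by 0.370 and CHH higher by 0.145, while an overlapping region of ddb2-3 was lower by 0.297.

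The regions nearest the centromere points were all outside protein-coding genes and differed by 0.110 to 0.240. The median in other sequence of the innermost 1 Mb was 0.156 in ddb2-3 and 0.154 in cen. These nearest regions lay 1.45 to 6.75 kb from the point in ddb2-3 and 0.550 to 6.95 kb in cen. In ddb2-3 those of chromosomes 1, 3, 4 and 5 were listed in the authors' deposited table as higher, by 0.191, 0.199, 0.148 and 0.112, and that of chromosome 2 was lower by 0.240. In cen those of chromosomes 1, 2 and 3 were higher, by 0.137, 0.179 and 0.138, and those of chromosomes 4 and 5 were lower, by 0.237 and 0.110.

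CG regions overlapped CHG regions of the same comparison more often outside the genes than in them. The numbers of CHG regions by class and direction are not given here, so the overlaps were not set against them. In ddb2-3, 367 pericentromeric CG regions (5.44%, 4.93 to 6.01) shared at least 1 bp with a CHG region of the same comparison, against 1.24% on the arms, and 363 of them went the same way in both contexts. In cen, 555 did (7.55%, 6.97 to 8.18), against 1.42% on the arms, and 550 went the same way. In other sequence the share was 8.14% in ddb2-3 and 11.1% in cen, and in genes it was 1.31% in ddb2-3 and 2.04% in cen. Other sequence on the arms had shares near these, 8.81% (7.73 to 10.0) in ddb2-3 and 10.1% (8.96 to 11.3) in cen. In other sequence of ddb2-3, 8.49% (7.41 to 9.70) of the higher and 7.69% (6.55 to 9.02) of the lower regions had such an overlap. In cen it was 13.3% (12.1 to 14.5) of the higher and 5.09% (3.97 to 6.51) of the lower ones. By distance, the share in other sequence of ddb2-3 was 8.05% in the innermost 1 Mb, 8.44% at 1 to 2 Mb and 7.81% at 2 to 3 Mb, and in cen it was 12.1%, 11.1% and 9.50%. CHH regions overlapped 0.771% of the CG regions in ddb2-3 and 0.885% in cen. Counting regions within 200 bp in place of a shared base pair gave 2.86% for CHH and 9.67% for CHG in ddb2-3, and 3.85% and 14.2% in cen. All 3 contexts went the same way at 19 regions of ddb2-3, 9 higher and 10 lower, and at 21 regions of cen, 19 higher and 2 lower.

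Of 77 listed genes for repair, for silencing and chromatin, and for light responses and development, 21 lie in the pericentromeres. The lists were chosen with earlier results of these data known, so their counts are description only. All 21 had a CG region in ddb2-3 and 20 had one in cen, beside 42.8% and 45.3% of all pericentromeric genes. Their lengths ran from 1.93 to 12.5 kb, and 17 of the 21 were 4 kb or longer, a length at which 86.0% of pericentromeric genes had a region in ddb2-3. A higher region lay in 19 of the 21 genes in ddb2-3 and in 19 in cen, beside 28% and 34.7% of all pericentromeric genes. A lower one lay in 15 in ddb2-3 and 17 in cen, beside 31% and 27.8%. Both directions were present in 13 of the genes in ddb2-3 and in 16 in cen, beside 511 and 542 of all 3147. Shares by direction among long genes are not given here. The lists held 38 higher and 29 lower regions in ddb2-3 and 52 and 29 in cen. Over all pericentromeric genes, 46.9% and 56.3% of the regions were higher.

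The repair list had 8 of its 34 genes here, with 12 higher and 7 lower regions in ddb2-3 and 18 higher and 7 lower ones in cen. DDB1A, whose protein joins DDB2 to the CUL4 ubiquitin ligase, had 3 higher and 2 lower regions in each comparison. Its window on chromosome 4 from 2747301 to 2747400 was higher by 0.343 in ddb2-3 and by 0.367 in cen in the authors' deposited tables. KU80, which binds broken DNA ends, had 2 higher and 1 lower region in ddb2-3 and 4 higher and 1 lower in cen. PARP2, a poly(ADP-ribose) polymerase gene, had 2 higher regions in ddb2-3, by 0.220 and 0.477, and 1 higher and 1 lower region in cen. The mismatch repair gene PMS1 had 1 region in ddb2-3 and 5 in cen. CRY1, the blue light receptor of the photolyase family, had 1 higher region in ddb2-3, and 2 higher and 1 lower in cen. The flap endonuclease gene FEN1 had 1 higher and 1 lower region in ddb2-3, and 1 higher in cen. MCM5, a subunit of the replicative helicase, lies 74.8 kb from the centromere point of chromosome 2. It had a region of 300 bp higher by 0.363 in ddb2-3 with a lower window, by 0.365, inside it, and a region higher by 0.430 in cen.

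Of the 39 genes for silencing and chromatin, 9 lie here, with 17 higher and 17 lower regions in ddb2-3 and 24 higher and 14 lower ones in cen. CLSY1, a remodeller that recruits RNA polymerase IV, had 4 lower regions in ddb2-3, by 0.195 to 0.298 in the authors' deposited table, and 3 higher and 3 lower ones in cen. DCL3, the Dicer that makes the small interfering RNAs of that pathway, had 4 higher and 2 lower regions in ddb2-3 and 6 higher and 1 lower in cen. RDR2, the RNA-dependent RNA polymerase that acts before it, had 1 higher and 1 lower region in ddb2-3, and 2 higher and 1 lower in cen. AGO1, the main microRNA effector, had 3 higher regions in ddb2-3, and 4 higher and 3 lower ones in cen. The largest loss on this list was in SPT16, a histone chaperone subunit, where chromosome 4 from 6602301 to 6602400 was lower by 0.775 in ddb2-3 and by 0.536 in cen in the authors' deposited tables. HIRA, another histone chaperone gene, had 2 higher and 2 lower regions in ddb2-3, and 3 and 2 in cen. MIS12, a kinetochore gene, had 2 higher regions in ddb2-3 and 1 in cen. ARP6, a subunit of the complex that places H2A.Z, lies 94.6 kb from the centromere point of chromosome 3 and had 1 region lower by 0.172 in ddb2-3 and none in cen.

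All 4 genes of the list for light responses and development lie here, a list chosen like the others with earlier results known. They had 9 higher and 5 lower regions in ddb2-3 and 10 higher and 8 lower ones in cen, with regions of each gene in both comparisons. PHYC, the phytochrome C gene, had 3 higher and 1 lower region in ddb2-3. In cen PHYC had 3 higher and 3 lower ones, of which the largest were lower by 0.495 and 0.432 in the authors' deposited table. ABH1, the gene of a cap-binding protein, had 4 higher and 1 lower region in ddb2-3 and 4 higher and 2 lower in cen. There, chromosome 2 from 5641101 to 5641200 was higher by 0.310 in ddb2-3 and lower by 0.40 in cen in the authors' deposited tables. VIP6, a subunit of the Paf1 complex of transcription elongation, had 1 higher and 3 lower regions in ddb2-3 and 3 higher and 1 lower in cen. SEU, a transcriptional co-regulator of flower development, had 1 region higher by 0.140 in ddb2-3, and 2 lower by 0.341 and 0.412 in cen.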

How the data were processed

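Genomic DNA of seedlings was bisulfite sequenced. Reads were handled with Bismark and Bowtie2 2.0 on TAIR10 after cutadapt, Trim Galore and FastQC, per the submitters' processing notes. The calling of regions (test, limit, coverage) is not given in the sources used. The authors deposited region lists with a start, an end and a difference in methylation level, all above 0.1 in absolute size, and the ddb2-3 comparison was recognised by its insertion name in the genotype label.

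From these, regions were counted by direction, by distance of the midpoint to the centromere point and by the class at the midpoint, in the order protein-coding gene, pseudogene, other RNA gene, within 1 kb of a protein-coding gene, none of these. Genes came from the RefSeq table of TAIR10.1, which has no strand, exons or transposons, and none of its coordinates are given, since the build differs by name. As a check, all regions were moved: 39.5% of the ddb2-3 regions lay in genes in place, 38.4% and 38.0% after 500 bp and 25.9% and 26.1% after 5000 bp to either side. Densities are per Mb of the class. The tables hold no value per library, and the labels give 1 library each for ddb2-3 and Col, so no test was made.

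The members, gene lists and tests were chosen with earlier results of these data known. Named are, for each comparison and direction, the 3 regions in protein-coding genes and the 2 elsewhere with the largest difference, the 3 longest regions, those nearest the centromere points, the 5 genes with most regions and the listed genes with a region, of which 1 is not reported here. A run on made-up positions gave back the shares they were made with. It made and read the positions with the same gene map and distance limit, so it could not test placement or counting. Scripts ran in Python 3.11.15, with SciPy 1.17.1, NumPy 2.4.6 and pandas 2.3.3, and plots were drawn with matplotlib 3.10.9. Alternatives were other distances and limits on the difference, merged neighbours, the knob kept in, parts or chromosomes left out, and other definitions of overlap.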

Additional observations from a re-analysis of the deposited data

How the results depend on the processing

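The limit on the size of the difference changed the results most. With differences of at least 0.2, the share higher was 49.5% in ddb2-3, now under an even split, and 59.0% in cen. In other sequence it was 51.8% in ddb2-3 and 65.8% in cen, and in genes of cen 53.5%. With at least 0.3, the share higher was 46.9% in ddb2-3 and 55.1% in cen, in other sequence 48.7% in ddb2-3 and 59.6% in cen, and in genes of cen 52.4%. The share higher in other sequence within 1 Mb minus that at 2 to 3 Mb was then -2.33 points (-13.6 to 8.91) in ddb2-3. In cen it was -5.73 points (-17.5 to 5.98), beside 7.71 points at 0.2. Both intervals at 0.3 include no difference, so a reversed order was not shown. The cause was not tested. These limits put 53.4% and 59.4% of ddb2-3 regions in genes, and 55.5% and 62.4% of cen regions. They gave a density within 1 Mb of 0.332 and 0.20 times that at 2 to 3 Mb in ddb2-3, and 0.304 and 0.179 times in cen, beside 0.666 in ddb2-3 and 0.688 in cen with all regions.

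Within 2 Mb of the centromere point, where no band of 2 to 3 Mb exists, 56.1% of ddb2-3 regions and 71.7% of cen regions were higher, in other sequence 59.1% and 75.8%, and in genes of cen 59.0%, with 24.6% and 24.1% of regions in genes. Within 4 Mb, 50.7% of ddb2-3 regions and 64.3% of cen regions were higher, and 50.9% and 50.5% lay in genes. Without the innermost 0.5 Mb, the shares higher were 50.8% in ddb2-3 and 65.2% in cen, in other sequence 53.9% and 72.4%, with 43.8% and 43.6% in genes and density ratios of 0.738 and 0.739. By base pairs, 40.8% of ddb2-3 and 41.0% of cen lay in genes. Within 200 bp, 9.67% of ddb2-3 regions and 14.2% of cen regions had a CHG region and 2.86% and 3.85% a CHH region.

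Leaving out each chromosome in turn (leave-one-out) kept the share higher at 51.9 to 53.1% in ddb2-3 and 65.6 to 67.9% in cen, the share in genes at 37.3 to 41.7% and 36.9 to 41.5%, the density ratio at 0.640 to 0.714 and 0.660 to 0.733, and the inner minus outer difference at 14.7 to 18.2 and 10.4 to 12.4 points. Of 160 alternative values, 105 stayed within the interval of the value reported, 50 moved out of it and 5 crossed an even split or no difference. The 105 include all with the knob kept in, with the stretch of chromosome 2 left out or with neighbours merged. They also include the inner minus outer difference and density ratio within 4 Mb, which use the same bands and could not change. Wilson and normal intervals take neighbouring regions as independent and are too narrow for that reason. No paired analysis was possible because the labels give 1 library each for ddb2-3 and Col and none for cen, and the tables hold no value per library. Depth per region is unknown, so small differences cannot be weighed against read number.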
